A study of Mus musculus with 6 samples.

Results

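Expression of 38 hypoxia and glycolysis genes was examined in posterior tissue of E9.5 mouse embryos that were Fkbp8 mutant or wildtype. The genes were listed by symbol, and every array probe with that symbol as its only gene name was taken, older symbols such as Aldo1, Gapd, Tpi and Bhlhb2 included. Of the 38 genes, 32 had such a probe, with 39 probes among the 34967 gene probes of the array, and 30 genes had a probe that could be tested (34 of 21688 probes tested). By role, the list held 7 genes of oxygen sensing, 2 glucose transporters, 16 glycolytic enzymes and 13 other targets of the hypoxia-inducible factors.

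The mutant group held 3 samples (replicates a, b and c) and the wildtype group 3 samples (replicates d, e and f), each on a 1-colour CodeLink Mouse Whole Genome array. The tissue was dissected from behind the forelimb bud of embryos of crosses between heterozygous Fkbp8 carriers. The mutant allele, strain and sex are not given in the sources used here, and mutant a is labelled as embryos in the plural, so whether it was pooled is not settled. The groups also differed in sex-linked genes. On all 3 mutant arrays and none of the wildtype arrays Eif2s3y, Ddx3y and Uty of the Y chromosome were above background. The reverse held for the brighter probe of Xist, the RNA of the inactive X. Genotype and sex-linked expression therefore cannot be told apart for any gene below.

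Cells sense oxygen through hydroxylation of the alpha subunits of the hypoxia-inducible factors (HIF). Prolyl hydroxylases such as Egln1 (PHD2) use oxygen to mark Hif1a and Epas1 protein, Vhl then leads the marked protein to degradation, and at low oxygen the stabilised subunit pairs with Arnt and activates its target genes. Those targets include the glucose transporters, most enzymes of glycolysis and genes that act in blood vessel growth, collagen modification and the restraint of mitochondrial pyruvate use, and embryos at this stage depend strongly on glycolysis. The Fkbp8 protein, an FK506-binding protein of the outer mitochondrial membrane, has been linked to the stability of Egln1 protein, which an RNA array does not measure.

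The HIF complex binds DNA at a short core, ACGTG or GCGTG. The promoters of 4 genes are shown. Hexokinase Hk2, kinase Pdk1 and phosphofructokinase Pfkl were the 3 members in the RefSeq promoter table with an unadjusted limma p under 0.05. That p was reached by 11.8% of member probes and 12.2% of all probes, so it does not set the members apart. Egln1 was added as the hydroxylase linked to Fkbp8. Each covers 250 bases before to 50 bases after an annotated start in RefSeq (GRCm38.p6), printed 5′ to 3′ on the strand of the gene. The capitals mark a core on the printed strand or, as CACGT or CACGC, on the other strand.
Hk2 promoter, chr6:82774405-82774704, minus strand: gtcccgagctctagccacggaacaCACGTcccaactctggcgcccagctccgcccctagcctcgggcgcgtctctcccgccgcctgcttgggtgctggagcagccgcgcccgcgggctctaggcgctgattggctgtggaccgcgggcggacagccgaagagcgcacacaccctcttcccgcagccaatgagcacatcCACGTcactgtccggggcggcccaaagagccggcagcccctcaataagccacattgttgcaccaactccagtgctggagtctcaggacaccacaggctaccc
Pdk1 promoter, chr2:71872974-71873273, plus strand: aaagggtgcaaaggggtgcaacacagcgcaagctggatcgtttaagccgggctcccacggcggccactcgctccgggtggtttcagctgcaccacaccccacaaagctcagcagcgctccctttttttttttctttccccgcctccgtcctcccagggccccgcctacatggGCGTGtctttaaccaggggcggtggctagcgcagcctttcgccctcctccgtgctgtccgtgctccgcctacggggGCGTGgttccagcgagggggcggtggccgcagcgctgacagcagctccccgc
Pfkl promoter, chr10:78009758-78010057, minus strand: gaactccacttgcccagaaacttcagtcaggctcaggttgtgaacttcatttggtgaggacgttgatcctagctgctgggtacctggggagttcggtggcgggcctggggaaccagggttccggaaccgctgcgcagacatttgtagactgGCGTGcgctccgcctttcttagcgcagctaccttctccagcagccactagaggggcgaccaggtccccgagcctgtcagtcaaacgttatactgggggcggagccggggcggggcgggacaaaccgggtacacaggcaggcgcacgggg
Egln1 promoter, chr8:124949205-124949504, minus strand: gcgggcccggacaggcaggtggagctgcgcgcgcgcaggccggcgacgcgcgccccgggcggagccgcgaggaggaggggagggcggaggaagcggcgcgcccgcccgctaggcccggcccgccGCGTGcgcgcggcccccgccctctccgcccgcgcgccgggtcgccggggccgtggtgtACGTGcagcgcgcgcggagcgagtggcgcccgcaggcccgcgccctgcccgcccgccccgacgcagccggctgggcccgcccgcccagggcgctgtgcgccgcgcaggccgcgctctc
The Hk2 window held 2 matches and 25 CpG dinucleotides, the Pdk1 window 2 matches and 25 CpG, the Pfkl window 1 match and 20 CpG, and the Egln1 window 2 matches and 60 CpG. A second annotated Pdk1 window held 0 matches and 2 CpG.

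Across the members, 34 of 38 genes were in the promoter table, with 50 windows, and 40 of these windows (80.0%) held a core on either strand. Among all 32851 windows of the table the share was 43.8%. By gene, 31 of the 34 member genes (91.2%) held a core, against 46.7% of all genes. The core contains a CpG, and member windows held a median of 20 CpG against 7 over all windows, so base composition moves with that difference and its part was not tested. A CACGTG counts once on each strand. Glycolytic enzymes had a core in 21 of 27 windows (77.8%) and the other HIF targets in 12 of 15 (80.0%). Slc2a3, Epas1, Ndrg1 and Bhlhe40 were not in the table.

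Fkbp8 itself was read first as a check of the labels. Its log2 intensity was 6.28, 6.30 and 6.11 in mutants a, b and c, against 10.57, 10.74 and 10.68 in wildtypes d, e and f. The groups were far apart, and the probe was detected above background in no mutant and in all wildtypes. The level was at least 18.8-fold lower in mutants (log2 fold change -4.43 ± 0.09, standard error from limma). Of the 21688 probes tested, 26 passed an adjusted p under 0.05 in limma (0.12%), 14 higher (0.0646%) and 12 lower (0.0553%) in mutants. Between 57.6% (mutant c) and 61.8% (wildtype f) of gene probes were above background per array. Arrays correlated across probes at 0.983 to 0.988 within mutants and at 0.992 to 0.993 within wildtypes. Between mutant and wildtype arrays the range was 0.984 to 0.989, so mutants were about as unlike each other as unlike wildtypes. The number of arrays limits the precision of each value. Markers of posterior mesoderm such as T, Tbx6 and Tcf15 were above background on every array of both groups, while Hand2 of the lateral mesoderm was above background on none.

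None of the 34 tested member probes passed an adjusted p under 0.05 (0.12% of all probes did), and the smallest adjusted p among them was 0.245 (limma), for Slc2a3. An unadjusted p under 0.05 in limma was found for 4 of 34 probes (11.8%), close to the 12.2% of all probes. Hk2 and Pdk1 had higher values in mutants (5.88%, against 6.43% of all probes), and Slc2a3 and Pfkl lower values (5.88%, against 5.81% of all). On 10 of 34 probes (29.4%) the values of mutants and wildtypes did not overlap, where 19.7% of all probes had no overlap. Of those 10 probes, 8 were higher in mutants (23.5% of member probes and 11.2% of all probes) and 2 were lower (5.88% of member probes and 8.56% of all). The 8 include the saturated Gapdh probe, a dimmer Tpi1 probe with 2 usable mutant arrays and a dimmer Mxi1 probe whose brightest probe had the other sign. Counted by gene, 6 of 30 were higher without overlap, Gapdh among them, and 2 lower. Over all 13334 genes tested these counts were 1611 and 1187. With 1 probe per gene, the brightest, 19 genes were higher and 11 lower in mutants, with a median log2 fold change of 0.08, against a median of 0.01 and 53.2% higher over the 13334 genes tested. With 3 against 3 samples the exact two-sided permutation test cannot give a p below 0.1, and it gave 0.1 where the groups of 3 did not overlap.

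**Figure D1:**
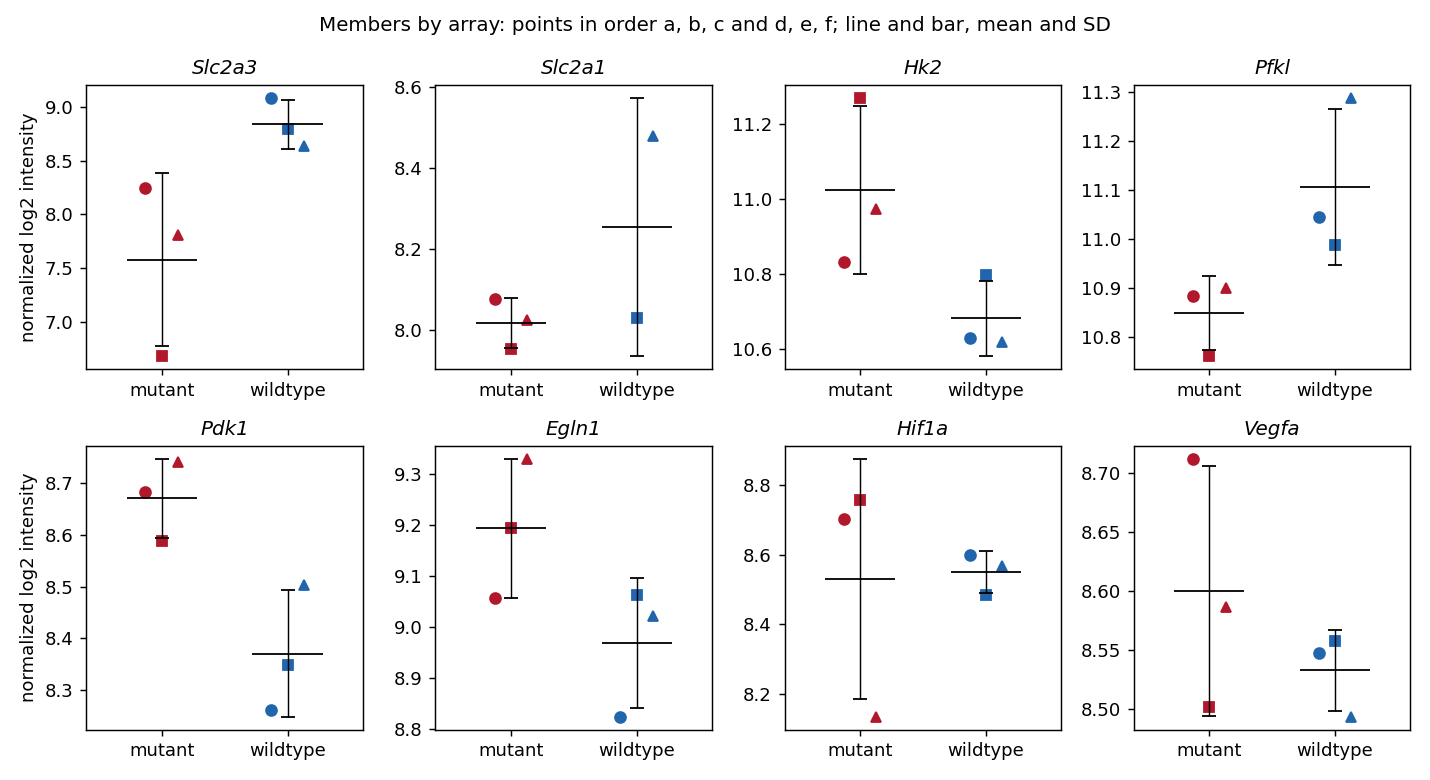
Normalized log2 intensity of 8 members on each array, mutants left and wildtypes right, with the mean (line) and SD (bar) of each group and a separate vertical scale in each panel. Slc2a3 and Pfkl lie lower and Hk2 and Pdk1 higher on all 3 mutant arrays, while Hif1a and Vegfa overlap; Slc2a1 has 2 usable wildtype arrays.

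Among the genes of oxygen sensing, the transcripts of the HIF alpha subunits Hif1a and Epas1 and of their partner Arnt had close mean values in both groups. Hif1a, the main HIF alpha subunit, had log2 intensities of 8.70, 8.76 and 8.13 in mutants against 8.60, 8.48 and 8.57 in wildtypes. Mutant c was the lowest of the 6 arrays and mutants a and b were the highest, so the mutants enclosed the wildtypes. The log2 fold change was -0.02 ± 0.15 (SE; limma adjusted p = 0.973), and without mutant c it was 0.18 ± 0.08. Epas1, the HIF-2 alpha subunit, was near the limit of detection, at 6.66, 6.66 and 6.79 in mutants and 6.69, 6.66 and 6.44 in wildtypes, where 3 mutant and 2 wildtype arrays were above background. Its log2 fold change was 0.11 ± 0.09 (limma adjusted p = 0.664), and it was 0.27 ± 0.19 when background was subtracted with a floor of 1. Without wildtype f it was 0.029 ± 0.090 and without mutant c 0.063 ± 0.10. Arnt, the shared beta subunit, read 7.92, 7.72 and 8.03 in mutants and 7.77, 7.92 and 8.04 in wildtypes, with the groups interleaved.

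Egln1, the hydroxylase whose protein has been tied to Fkbp8, had higher mean RNA in mutants but not beyond the spread of the samples. Its log2 intensities were 9.06, 9.19 and 9.33 in mutants against 8.82, 9.06 and 9.02 in wildtypes. Among the mutants, a alone lay within the range of the wildtypes, and its value was about that of wildtype e. The log2 fold change was 0.22 ± 0.10, which is 1.17-fold, with a limma p of 0.0529 before and 0.414 after adjustment and an exact permutation p of 0.2. Egln1 and Fkbp8 both lie on chromosome 8, with 411 tested genes between them. The other hydroxylases were nearer to 0: Egln2 gave 0.09 ± 0.09 (9.90, 9.94 and 9.73 in mutants, 9.85, 9.69 and 9.76 in wildtypes) and Egln3, itself a HIF target, gave 0.03 ± 0.10 (8.15, 7.87 and 7.83 in mutants, 7.84, 7.96 and 7.94 in wildtypes). Over the 6 genes of oxygen sensing tested, 4 were higher and 2 lower in mutants, with a median of 0.06. Vhl, the recognition subunit of the ubiquitin ligase, had no probe of its own name alone and is not analysed here.

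Both glucose transporters had lower means in mutants, and neither passed the test (Slc2a1 turned to 0.098 with the erythroid covariate described below). Slc2a3 (GLUT3), the high-affinity transporter, had log2 intensities of 8.25, 6.68 and 7.81 in mutants against 9.09, 8.79 and 8.64 in wildtypes. All 3 mutants lay below all 3 wildtypes, and mutant b was far below the other mutants. The log2 fold change was -1.26 ± 0.34, or 2.39-fold lower, with a 95% interval of -2.03 to -0.49, a limma p of 0.0051 before and 0.245 after adjustment and an exact permutation p of 0.1. Without mutant b it was -0.81 ± 0.17 (limma adjusted p = 0.267). In bulk tissue, fewer cells that express a gene and less RNA per cell cannot be told apart. Slc2a1 (GLUT1), the widespread basal transporter, read 8.08, 7.95 and 8.03 in mutants and 8.03 and 8.48 in wildtypes e and f, as the spot on wildtype d was marked irregular and dropped. Those groups overlapped, and the log2 fold change was -0.24 ± 0.14 (limma adjusted p = 0.517). Wildtype e lay within the range of the mutants, so the lower mean of Slc2a1 in mutants rests on wildtype f. Its direction could not be checked without wildtype e or f, as too few usable wildtype spots would remain.

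Mutant b also had the lowest value of Slc16a1 (MCT1), a monocarboxylate carrier that moves lactate and pyruvate across the plasma membrane and belongs to the wider pathway lists. Its log2 intensities were 10.86, 9.46 and 10.76 in mutants against 11.18, 11.12 and 11.16 in wildtypes, a log2 fold change of -0.80 ± 0.31 (limma adjusted p = 0.365). Sox2, a marker of neural progenitors singled out after its values were seen, had the same order among mutants, with 9.89, 9.08 and 9.83 in mutants and 10.13, 10.00 and 10.18 in wildtypes. Averaged over 6 neural progenitor markers, the log2 level was 8.53, 8.34 and 8.45 in mutants against 8.71, 8.70 and 8.64 in wildtypes, with no overlap. Of these 6 markers, 4 were lower and 2 higher in mutants and all were above background on every array. Pax6 passed the test (log2 fold change -1.15 ± 0.09, limma adjusted p = 0.0029). It had the largest difference of the 6, and the lower mean rests largely on it. The 2 higher markers, Fabp7 (0.21 ± 0.09) and Nes (0.16 ± 0.07), did not overlap between the groups, while Hes5 and Sox1 overlapped. Over 5 neuron markers the mean log2 level was 7.66, 7.60 and 7.63 in mutants against 7.55, 7.58 and 7.52 in wildtypes, also without overlap but higher in mutants (3 genes higher and 2 lower). The part of neural progenitor and neuron content in the Slc2a3 value was not tested.

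The hexokinases, which commit glucose to the cell by phosphorylating it, were higher on every mutant array than on any wildtype array, though neither passed the test. Hk2, the inducible isozyme, read 10.83, 11.27 and 10.97 in mutants and 10.63, 10.80 and 10.62 in wildtypes. The lowest mutant, a, was just above the highest wildtype, e. The log2 fold change was 0.34 ± 0.12 (1.27-fold, 95% interval 0.07 to 0.61), the limma p was 0.0182 before and 0.319 after adjustment, and the exact permutation p was 0.1. Without mutant b the log2 fold change was 0.22 ± 0.10. Hk1, the constitutive isozyme, read 8.78, 9.03 and 8.78 in mutants and 8.75, 8.63 and 8.57 in wildtypes, again without overlap, and its log2 fold change was 0.21 ± 0.10 (limma adjusted p = 0.419). Without mutant b it was 0.13 ± 0.09.

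The phosphofructokinase subunits, which form the main control step of glycolysis, did not share a direction. Pfkl, the liver-type subunit, read 10.88, 10.76 and 10.90 in mutants and 11.05, 10.99 and 11.29 in wildtypes. All mutants were below all wildtypes. The log2 fold change was -0.26 ± 0.10 (1.20-fold lower, 95% interval -0.48 to -0.04), with a limma p of 0.0268 before and 0.347 after adjustment and an exact permutation p of 0.1, and it was -0.17 ± 0.09 without wildtype f. Pfkm, the muscle-type subunit, read 10.15, 10.20 and 10.02 in mutants and 9.86, 10.05 and 9.92 in wildtypes (0.18 ± 0.09, limma adjusted p = 0.432), with mutant c inside the wildtype range. Pfkp, the platelet-type subunit, had a log2 fold change of -0.0055 ± 0.084 with overlapping groups.

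In the lower steps of the pathway the values stayed close to one another. Aldoa, the main aldolase, read 11.96, 11.88 and 11.90 in mutants and 11.72, 11.81 and 11.82 in wildtypes, without overlap and with a log2 fold change of 0.13 ± 0.07 (limma adjusted p = 0.495), or 0.20 with median centring. Aldoc, the brain-type aldolase, gave -0.02 ± 0.10 and the brighter Tpi1 probe, for triosephosphate isomerase, gave 0.07 ± 0.11, both with overlap. The dimmer Tpi1 probe gave 0.16 ± 0.10 over 2 usable mutant arrays and 3 wildtype arrays, which did not overlap. Pgk1, a phosphoglycerate kinase gene on the X chromosome and a classical HIF target, read 13.30, 13.22 and 13.26 in mutants and 13.22, 13.22 and 13.32 in wildtypes, and its log2 fold change of 0.0092 ± 0.073 (limma adjusted p = 0.972) left the groups interleaved.

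Pkm, the pyruvate kinase of growing tissue, read 13.21, 13.17 and 13.28 in mutants and 13.45, 13.49 and 13.26 in wildtypes. Wildtype f lay among the mutants, and the log2 fold change was -0.18 ± 0.09 (limma adjusted p = 0.434, exact permutation p = 0.2). Ldhb, a lactate dehydrogenase subunit, read 10.59, 10.68 and 10.58 in mutants and 10.51, 10.43 and 10.45 in wildtypes, without overlap (0.15 ± 0.07, limma adjusted p = 0.439), and its dimmer probe gave 0.08 ± 0.10 with overlap. Gapdh and Eno1 were saturated on all 6 arrays at their brightest probe, so no fold is given for it. A dimmer Gapdh probe gave -0.05 ± 0.07.

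Ldha, the lactate dehydrogenase subunit most tied to HIF, had only a probe that was not above background on any of the 6 arrays, with 6.23, 6.24 and 6.08 in mutants and 5.97, 5.95 and 5.93 in wildtypes, so no fold is given. A bright probe without a gene name, described in the array file by likeness to the lactate dehydrogenase M chain, read 14.08, 14.03 and 14.07 in mutants and 14.17, 14.08 and 14.15 in wildtypes, a log2 fold change of -0.07 ± 0.07 (limma adjusted p = 0.711). That probe was chosen after its values were seen and is not counted among the members. Gpi1 and Pgam1, the glucose phosphate isomerase and a phosphoglycerate mutase, had no probe of their own name alone and are not analysed here.

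Over the 13 glycolytic enzymes tested, 8 were higher and 5 lower in mutants, with log2 fold changes between -0.26 and 0.34 and a median of 0.07, and none passed the test. That median depended on the scaling: it was 0.19 with median centring of each array and 0.17 in the deposited series table, where 10 of 13 were higher in either case. The mean log2 level of the 12 enzymes with a usable spot on every array was 10.89, 10.89 and 10.84 in mutants and 10.82, 10.80 and 10.82 in wildtypes. The mutants were thus higher by 0.06 on average. The saturated Gapdh probe is among those 12, and the saturated Gapdh and Eno1 probes are among the 13.

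**Figure D2:**
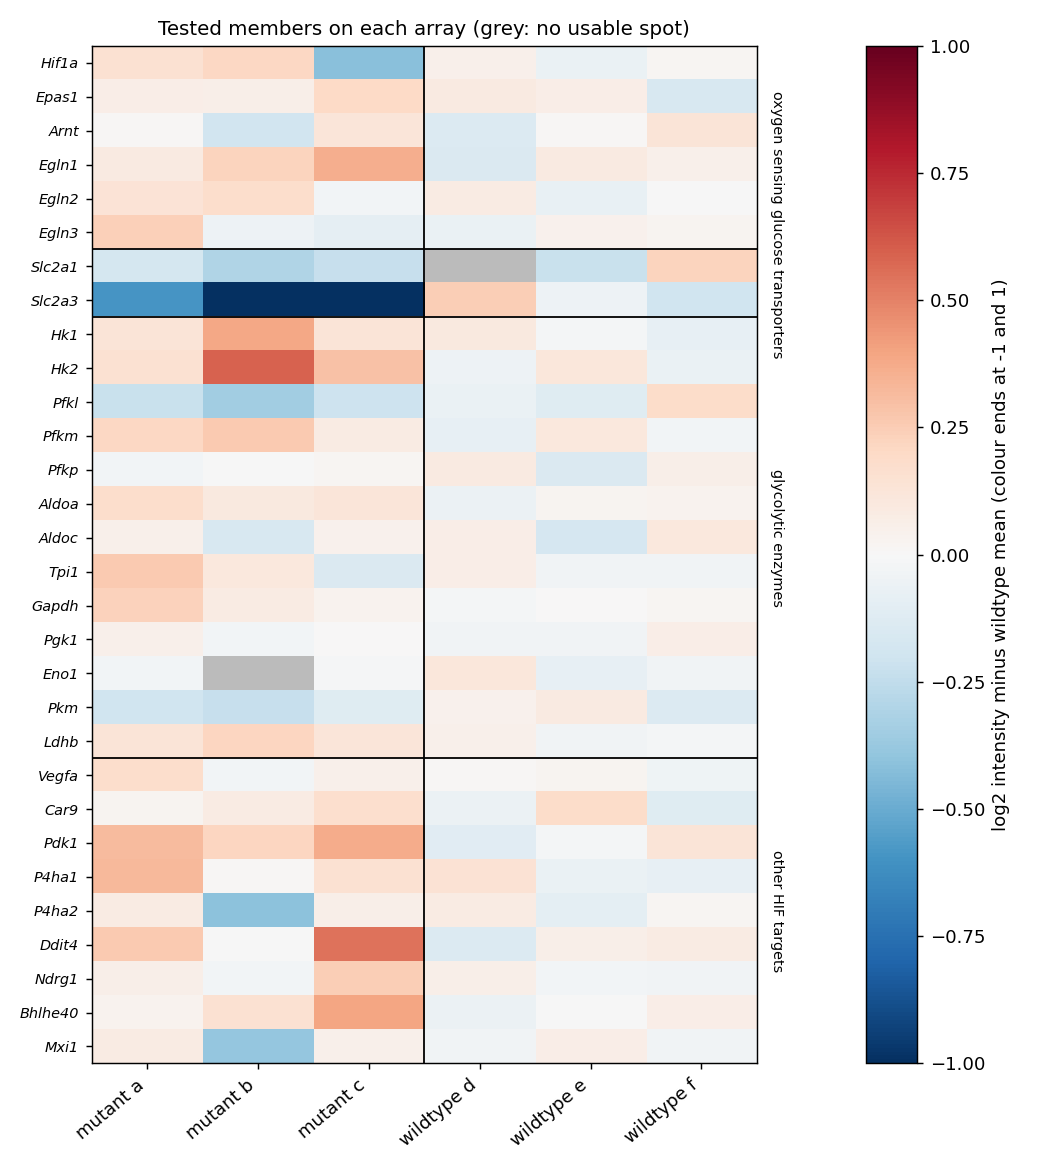
Log2 intensity of each of the 30 tested members (rows, grouped by role) on each array (columns, mutants left), minus the wildtype mean of that probe, with red for higher, blue for lower and grey for a dropped spot. Most cells are pale, and the deepest blue is that of Slc2a3 in mutants b and c.

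Among the 9 other HIF targets tested, Pdk1 had the smallest p. Pdk1 encodes a kinase that inhibits pyruvate dehydrogenase and so restrains the use of pyruvate in mitochondria. It read 8.68, 8.59 and 8.74 in mutants and 8.26, 8.35 and 8.50 in wildtypes. All mutants were above all wildtypes, with mutant b and wildtype f the nearest pair. The log2 fold change was 0.30 ± 0.09 (1.23-fold, 95% interval 0.10 to 0.50), with a limma p of 0.0084 before and 0.275 after adjustment and an exact permutation p of 0.1. When each array was left out in turn it ran between 0.25 and 0.37.

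Vegfa, the main blood vessel growth factor and a standard readout of HIF activity, read 8.71, 8.50 and 8.59 in mutants and 8.55, 8.56 and 8.49 in wildtypes. The groups overlapped, and the log2 fold change of 0.07 ± 0.08 (limma adjusted p = 0.765) had a 95% interval of -0.12 to 0.25. Ddit4, an inhibitor of mTORC1 signalling induced by stress, read 8.84, 8.57 and 9.12 in mutants and 8.43, 8.63 and 8.65 in wildtypes (0.27 ± 0.14, limma adjusted p = 0.464), with mutant b inside the wildtype range. Bhlhe40, a transcriptional repressor, read 7.00, 7.11 and 7.35 in mutants and 6.90, 6.95 and 7.02 in wildtypes (0.19 ± 0.10, limma adjusted p = 0.478). Mutant c had the highest value of both genes, and without it the log2 fold change was 0.13 ± 0.11 for Ddit4 and 0.094 ± 0.087 for Bhlhe40. With background subtracted at a floor of 1 that of Bhlhe40 was 0.34 ± 0.17. Without mutant b that of Ddit4 was 0.40 ± 0.12.

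Ndrg1, a stress-response gene, read 8.22, 8.14 and 8.41 in mutants and 8.22, 8.14 and 8.13 in wildtypes at its bright probe (0.09 ± 0.09, limma adjusted p = 0.703), and a further probe stayed below background throughout. The collagen prolyl hydroxylase subunits P4ha1 and P4ha2 gave 0.16 ± 0.10 (0.080 ± 0.10 without mutant a) and -0.09 ± 0.13, and Car9, a carbonic anhydrase of the cell surface, gave 0.09 ± 0.10, each with overlap. Mxi1, a MYC antagonist, gave -0.09 ± 0.13 at its brightest probe. A dimmer Mxi1 probe gave 0.17 ± 0.08 (limma adjusted p = 0.417) and did not overlap, with 7.25, 7.28 and 7.22 in mutants and 7.04, 7.17 and 7.04 in wildtypes, so the probes disagreed in sign.

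Adm, the vasodilator peptide adrenomedullin, was above background in mutants b and c and in no wildtype and so fell short of the filter for the test. It read 6.48, 6.69 and 6.61 in mutants and 6.14, 6.19 and 6.27 in wildtypes. The groups did not overlap. Against the lowest values above background the mutant mean was 1.14-fold higher, but that mean includes mutant a, which was not above background. With no filter on dim probes the log2 fold change of Adm was 0.39 ± 0.09 (limma adjusted p = 0.238). Ankrd37, Higd1a and Mif had no probe of their own name alone and are not analysed here. Over the 9 other HIF targets tested, 7 were higher and 2 lower in mutants, with a median of 0.09, and without mutant b all 9 were higher. Their mean log2 level was 8.41, 8.22 and 8.49 in mutants, against 8.25, 8.28 and 8.26 in wildtypes. Mutant b was below all wildtypes on this mean and mutants a and c above them.

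**Figure D3:**
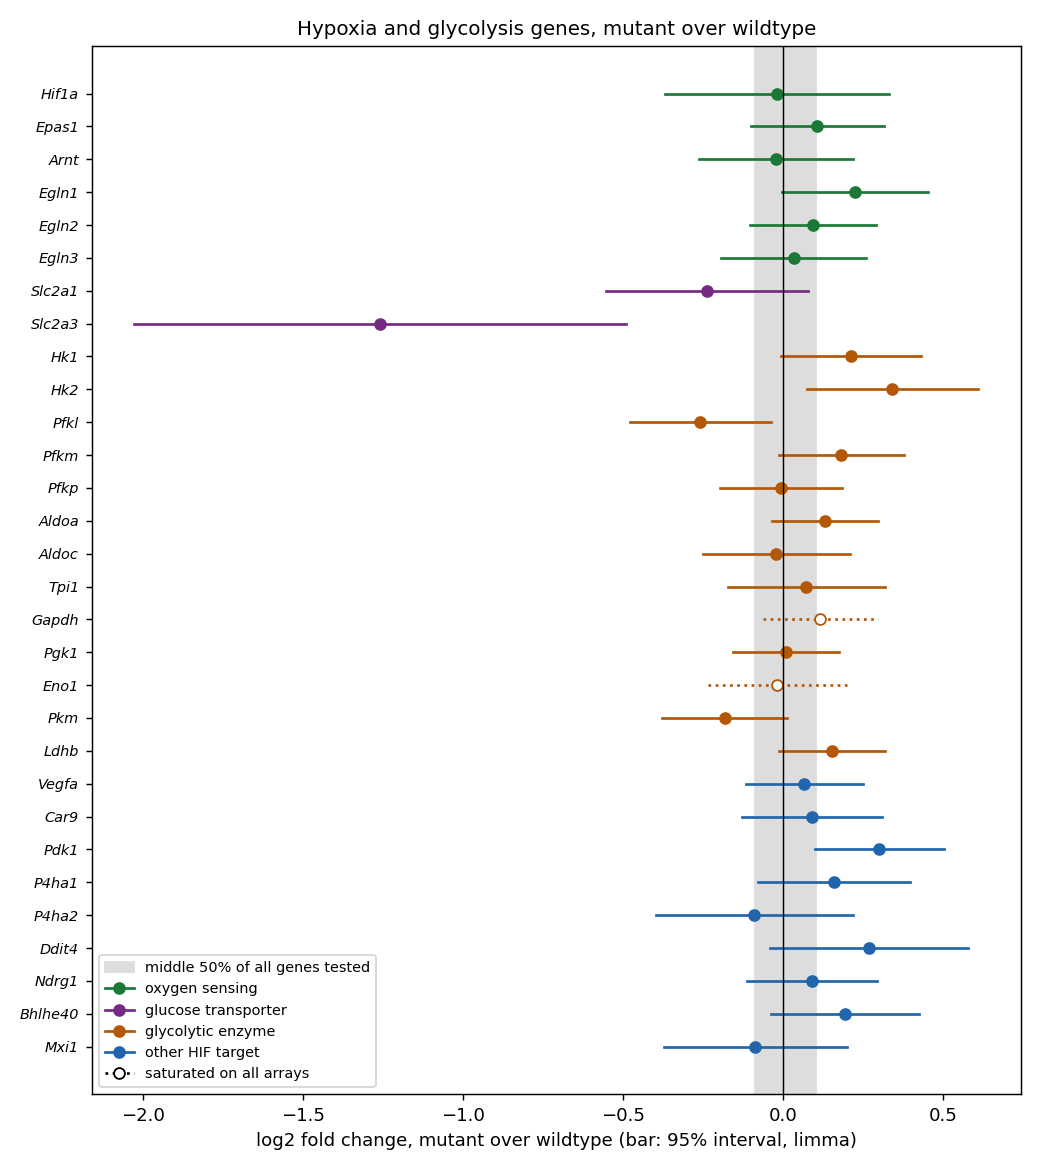
Log2 fold change of mutant over wildtype for each of the 30 tested members, coloured by role, with 95% intervals from limma and a grey band for the middle 50% of all genes tested. Slc2a3 lies far left of the rest, and the intervals of Slc2a3, Pfkl, Hk2 and Pdk1 leave out 0 before adjustment; open points are saturated probes, whose single fold changes are not given in the text but which enter the counts and medians.

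Of the 28 members with an unsaturated brightest probe, 13 had a 95% interval that lay within 1.25-fold in either direction, among them Vegfa, Pgk1, Aldoa, Ldhb and Egln2. For 26 of 28 it lay within 1.5-fold, the exceptions being Slc2a3 and Hk2, and for 27 it lay within 2-fold, the exception being Slc2a3. These intervals are not adjusted for the number of genes, and the offset of 50 narrows those of dim probes such as Epas1.

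The pathway lists around the members gave the same count of 0 at an adjusted p under 0.05 (limma), against 0.12% of all probes. Of 26 tested among 30 further HIF targets, 16 were higher and 10 lower in mutants, with a median of 0.06. An unadjusted limma p under 0.05 was found for 5 of the 26, each higher in mutants. Counted the same way, 978 of all 13334 genes tested were higher and 820 lower at that p. Kdm3a, a histone demethylase, read 11.18, 11.16 and 11.23 in mutants and 10.89, 10.81 and 10.79 in wildtypes (0.36 ± 0.07, limma adjusted p = 0.168), and Ak4, a mitochondrial adenylate kinase, gave 0.31 ± 0.08 (limma adjusted p = 0.242). Vldlr, a lipoprotein receptor, read 8.24 and 8.23 in mutants b and c and 7.67, 7.37 and 7.69 in wildtypes (0.66 ± 0.12, limma adjusted p = 0.157), with mutant a dropped, and its other probe gave 0.27 ± 0.09. These genes were named for the smallest p in the list, and none of them overlapped between the groups. Of the 26 tested, 6 were higher and 1 lower without overlap. Over all 13334 genes tested these counts were 1611 and 1187.

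Of 15 tested among 16 HIF cofactors and genes of its degradation, 9 were higher and 6 lower, with a median of 0.02. Of these, 1 higher and 2 lower had an unadjusted p under 0.05 (978 and 820 of all 13334 genes tested). Hif1an, the asparagine hydroxylase that blocks HIF coactivator binding, read 9.42, 9.74 and 9.56 in mutants and 9.60, 9.68 and 9.75 in wildtypes at its brightest probe, with overlap (-0.10 ± 0.10, limma adjusted p = 0.697). Its dimmer probes gave -0.26 ± 0.08, without overlap, and -0.0068 ± 0.088. Cited2, a competitor of HIF for its coactivators, gave -0.26 ± 0.10 (limma adjusted p = 0.368). The coactivator Ep300, 1 of the 2 lower genes, was above background in no mutant and all 3 wildtypes, so it met the filter through the wildtypes alone. It lay near the limit of detection, at 6.40, 6.23 and 6.14 in mutants and 6.73, 6.67 and 6.51 in wildtypes. Against the lowest values above background the mutants were at least 1.15-fold lower, and Ep300 did not pass the test (limma adjusted p = 0.239).

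In pyruvate oxidation and transport, 9 of 14 listed genes were tested, with 3 higher, 6 lower and a median of -0.04. An unadjusted p under 0.05 was found for 2 of the lower (820 of all 13334 genes tested). Dlat, the acetyltransferase subunit of pyruvate dehydrogenase, read 9.01, 9.02 and 8.90 in mutants and 9.43, 9.38 and 9.30 in wildtypes (-0.40 ± 0.08, limma adjusted p = 0.157), without overlap. Dld, the shared dihydrolipoamide dehydrogenase, read 10.53, 9.58 and 10.33 in mutants and 10.61, 10.62 and 10.54 in wildtypes (-0.45 ± 0.21, limma adjusted p = 0.431), with mutant b again the lowest. Of 13 tested among 17 tricarboxylic acid cycle genes, 7 were higher and 6 lower (median 0.04). Among the higher, 2 had an unadjusted p under 0.05 (978 of all 13334 genes tested). Sdhc, a membrane subunit of succinate dehydrogenase, gave 0.28 ± 0.08 (limma adjusted p = 0.275). All 5 tested of 7 pentose phosphate genes had positive values (median 0.02), and the 10 tested of 13 further isozymes of glycolysis divided into 5 higher and 5 lower (median 0.03), with 0 at an unadjusted p under 0.05 in either list.

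**Figure D4:**
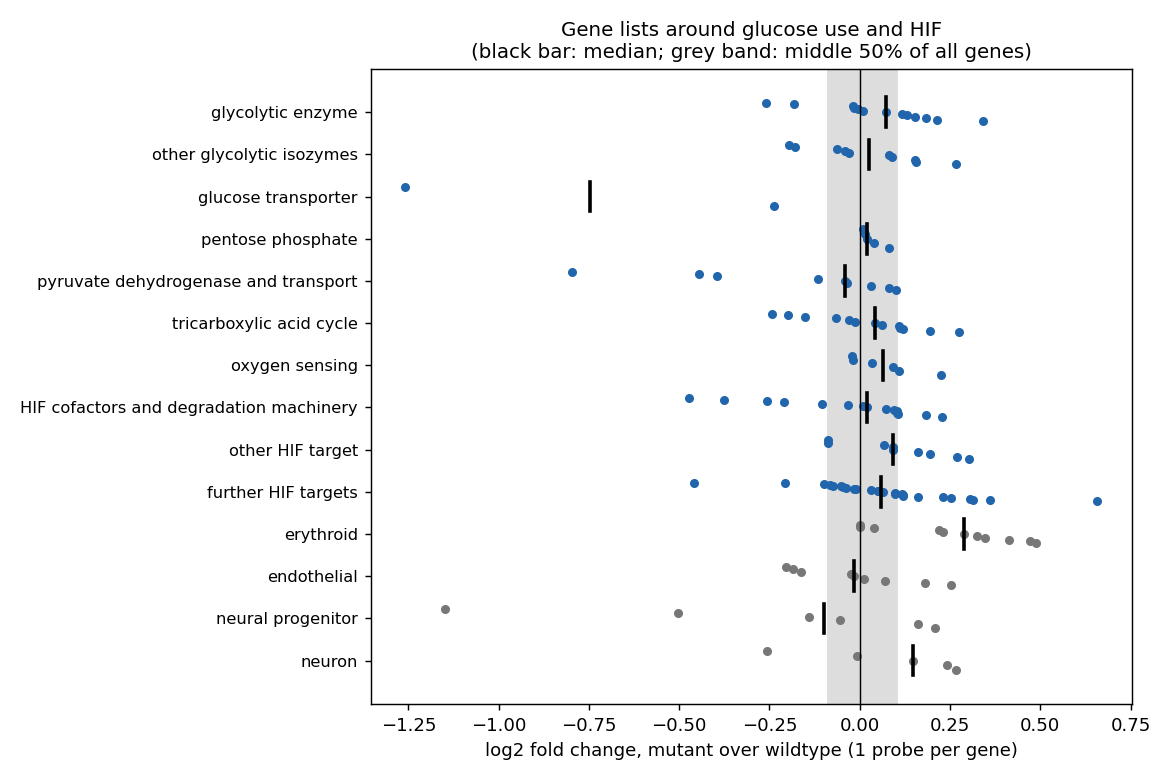
Log2 fold change of mutant over wildtype for each tested gene of 10 lists around glucose use and HIF (blue) and of 4 cell type marker lists (grey), 1 probe per gene, with the list median as a black bar and the middle 50% of all genes as a grey band. The medians of the 2 glucose transporters and the neural progenitor markers lie left of the band and those of the erythroid and neuron markers right of it, while the other medians lie within it.

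Erythroid markers, which report blood in the dissected tissue, had higher means in mutants, as several members did. All 11 tested of 12 listed had positive log2 fold changes, up to 0.49 for Slc4a1. They were close to 0 for the globin probes of Hbb-bh1, saturated on all arrays, and Hba-x, saturated on some. The unsaturated Hba-a1 probe (0.04 ± 0.11) and a dimmer unsaturated Hbb-bh1 probe (0.07 ± 0.26) were also low, with overlap, while Hbb-y gave 0.29 ± 0.19. The median was 0.29, with 0 genes past an adjusted and 4 past an unadjusted p of 0.05 (limma). Over all 13334 genes tested, 978 were higher at that unadjusted p. Their mean log2 level over 10 genes was 11.30, 11.25 and 11.10 in mutants against 11.14, 11.03 and 10.73 in wildtypes, with mutant c inside the wildtype range, and all of them were above background on every usable spot. A fit with this erythroid mean as a covariate was added after seeing the data. The mean itself differed by group (11.22 in mutants, 10.96 in wildtypes) and includes X-linked Alas2 and Gata1 and the saturated Hbb-bh1 probe. Blood content, genotype and sex-linked expression therefore cannot be told apart in that fit. In it the log2 fold change of Pdk1 was 0.44 ± 0.10, of Egln1 0.36 ± 0.13, of Hk2 0.32 ± 0.17 and of Slc2a3 -1.45 ± 0.48. That of Slc2a1 was 0.098 ± 0.20, of Hk1 0.12 ± 0.13 and of Pfkl -0.11 ± 0.11, and no member passed an adjusted p under 0.05 (limma). Endothelial markers had 4 genes higher and 5 lower in mutants of 9 tested, with means of 9.30, 9.29 and 9.26 in mutants and 9.29, 9.35 and 9.24 in wildtypes.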

How the data were processed

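RNA of 6 samples was read on 1-colour CodeLink arrays of 34967 gene probes. Per the file headers, the authors quantified spots with CodeLink software as intensity (spot mean and local background median), and the deposited series table equals the scanner's median-scaled intensity, on a linear scale. From the deposited spot means, log2 intensities were computed here in R 4.3.3 with limma 3.58.1: normexp background correction (offset 50), control spots dropped, spots with a contaminated, irregular or masked mark set to missing (339 to 508 per array), and quantile normalization. The offset makes fold changes of dim genes smaller. A probe was tested if marked good or saturated (here "above background") on at least 3 of 6 arrays with at least 2 usable spots per group. Mutant and wildtype were compared per probe in a two-sided limma test (lmFit, eBayes), adjusted after Benjamini and Hochberg over 21688 probes at a threshold of 0.05. The procedure was tested on simulated data. A value after ± is the standard error.

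Probe names came from the platform annotation updated through RefSeq (21442 probes by Entrez ID and 135 by symbol), RefSeq accessions (417) or the array file (515). 204 probes with several names and 12254 with none were left unnamed. A gene is shown by its brightest tested probe, and others are given where they differ. Where a group had no array above background, the bound sets the brighter mean against the lowest values above background. Full values are given for members with an unadjusted p under 0.05, without overlap at the brightest probe or fixed by name. They are also given for some members outside that rule, such as Arnt, Egln2, Egln3, Pfkm, Ddit4, Bhlhe40 and Adm. From each pathway list at most 3 genes were named, by smallest p. Members, lists and rule were chosen with earlier results of these data known. No label pairs mutants with wildtypes, and nothing says that the samples came from separate litters, so p-values reflect only how these 6 samples vary, which may be technical. Promoter windows are from RefSeq (GRCm38.p6), which was used for names, gene order and these windows only. The alternatives tried are given with their effect in the closing section.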

Additional observations from a re-analysis of the deposited data

How the results depend on the processing

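No member passed an adjusted p under 0.05 or 0.1 under any alternative run (smallest 0.121, for Slc2a3 without mutant a). Over all probes the count of 26 was 16 with median centring, 13 with a floor of 1, 15 with the deposited table, 16 with probes above background on all 6 arrays, 14 without genes of X and Y and 9 with the erythroid covariate, and 11 to 37 when an array was left out. The 4 members at an unadjusted p under 0.05 became 3 to 7 in turn (7 without mutant a and 7 without wildtype e). The median of the glycolytic enzymes (0.073) was 0.186 with median centring, 0.169 with the deposited table, 0.034 with the mean of all probes of a gene, and 0.033 (without mutant a) to 0.148 (without mutant c) when an array was left out. That of the other HIF targets and oxygen-sensing genes together (0.092) stayed between 0.047 and 0.121.

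Of 545 alternative values of single genes with an unsaturated probe, Fkbp8 included, 514 kept their direction. Many of these could not turn. The filters on dim probes, the intensity trend and the removal of X, Y or saturated probes leave each log2 fold change as it was. Slc2a3, Hk2, Pdk1, Pfkl and Egln1 kept their direction in all alternatives. The sign turned as follows. With median centring Hif1a was 0.019 and Pfkp 0.037, and with array weights Hif1a was 0.0014 and Pfkp 0.0035. Pfkp was 0.0011 without background correction and 0.0096 in the deposited table. With cyclic loess Pgk1 was -0.0050, and with marked spots kept Pgk1 was -0.0012. With the erythroid covariate Arnt was 0.141, Slc2a1 0.098, Pfkp 0.022, Aldoc 0.049 and Tpi1 -0.061. Leaving out an array gave -0.13 to 0.18 for Hif1a, -0.091 to 0.065 for Arnt, -0.068 to 0.094 for Egln3, -0.076 to 0.038 for Pfkp, -0.10 to 0.048 for Aldoc, -0.020 to 0.18 for Tpi1, -0.012 to 0.042 for Pgk1, -0.18 to 0.073 for P4ha2 and -0.17 to 0.064 for Mxi1. The cause was not tested.

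No paired analysis was possible because the groups share no replicate letter. A block for slide or scan date was not run, since each array was its own slide and the headers used here give no scan date. The erythroid covariate and the removal of saturated probes were added after seeing the data. Spots near background, such as Epas1, Adm and Ldha, and saturated spots limit what the arrays resolve.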
